A study of Homo sapiens with 6 samples.

Results

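The genes described here are 10 regulators of the G1-phase of the cell cycle, chosen by symbol: the cyclin genes CCND1, CCND3, CCNE1 and CCNE2, the kinase gene CDK6, the CDK inhibitor genes CDKN1A (p21) and CDKN1B (p27), and SKP2, CKS1B and FBXW7, which encode parts of the ubiquitin ligases that degrade p27 and cyclin E. All 10 were found once among the 63677 Ensembl gene identifiers of the count table, and all 10 were among the 15099 genes that passed the filter on low counts. RNA was sequenced from T24, a line from a high-grade bladder carcinoma. The 3 control libraries (replicates 1, 3 and 5) came from cells given a non-targeting siRNA and the 3 siRBM3 libraries (replicates 3, 4 and 5) from cells given a pool of 2 siRNAs against RBM3, an RNA-binding protein. In both groups the siRNA was applied by lipofection in serum-free medium at 25 nM for 4.5 h, and the cells were harvested the next day after recovery in full medium. The samples are bulk RNA of 1 cell line, so fewer cells in a phase and less RNA per cell cannot be told apart. The labels do not say whether replicates were separate cultures, and p-values measure the spread between these samples only. Values listed per library follow the order control replicates 1, 3 and 5, then siRBM3 replicates 3, 4 and 5.

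Library totals ranged from 23603992 to 45098612 counts, the highest being siRBM3 replicate 3, in which 9.40% of counts were mitochondrial against 1.63 to 4.15% in the other 5 libraries. RBM3 had 225, 368 and 301 CPM (library-scaled counts, with sizes adjusted by TMM factors) in the controls and 54.1, 90.1 and 58.4 CPM after silencing, so the targeted gene matched the labels (log2 fold change -2.14, edgeR FDR = 0.0822). Of 6 epithelial markers, all but CDH1 had more than 1 CPM, and KRT7, KRT8, KRT18 and KRT19 made up nearly all of a summed level of 4207 to 5870 CPM. Of 7 urothelial markers, UPK1A, UPK1B, UPK3A, KRT5 and KRT20 were under 1 CPM in every library, and GATA3 was the highest with 9.31 to 14.3 CPM. Markers of immune and endothelial cells summed to 0.553 to 1.28 CPM. The epithelial sum was 5065 to 5870 CPM in control and 4207 to 4305 CPM in siRBM3 libraries, and its part in the results below was not tested.

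Progress through G1 is driven by D-type cyclins with CDK4 and CDK6, and then by E-type cyclins with CDK2. The inhibitors p21 and p27 bind these complexes and restrain CDK2. p27 is removed by the SCF ubiquitin ligase when SKP2, its substrate receptor, binds phosphorylated p27 with the help of the small protein CKS1, encoded by CKS1B. FBXW7 is the receptor of a second SCF ligase that removes phosphorylated cyclin E. Much of this control acts on proteins, which RNA counts do not measure.

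The 300 bases around each annotated gene start (RefSeq, GRCh38.p14) were read for 8 of the genes, leaving out CCND1 and CCNE2, because several of them are textbook targets of cell cycle and forkhead transcription factors. Both strands were searched for the E2F motif TTTNNCGC, the cell cycle homology region TTTGAA and the forkhead motif GTAAACA; no gene held more than 1 of them. The E2F letters were found at 0 of the 8 genes and in 6.89% of the 35116 promoters searched. The cell cycle homology letters were found at CKS1B and at a start of FBXW7, and in 15.2% of all promoters. The forkhead letters were found at the most upstream start of CCND3, and in 3.42% of all promoters. A gene was counted if any of its starts held the letters, while the percentages are of single promoters, so they are not like for like. The sites are shown 5′ to 3′ on the strand of the gene, 30 bases each, with the motif in capitals. They lie at chr6:42048672-42048701 (minus strand), chr1:154974639-154974668 (plus strand) and chr4:152353019-152353048 (minus strand), and the motif begins 2, 30 and 210 bases before the gene start.
CCND3: gcgcggactttGTAAACActtcgccactgc
CKS1B: gcgggcggcgtgTTTGAAagcgaggccaaa
FBXW7: acctcttgaaagTTTGAAaggggagagggg
A match of letters is a description of the sequence and not a measured binding site.

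Across the 10 genes, mean levels in siRBM3 cells were above control for CCND3 and CDKN1B and below it for CCND1, CDKN1A and CKS1B. For SKP2, FBXW7, CCNE1, CCNE2 and CDK6 the groups overlapped and the 95% interval of the fold included 1. The groups also overlapped for CKS1B, and the interval of CDKN1A (0.734 to 1.00) also included 1. None of the 10 passed the study's thresholds (FDR 0.01 with a 1.5-fold difference) in edgeR, adjusted over all genes by the Benjamini-Hochberg method, and neither did any other gene (0% of 15099). DESeq2, which called 1.22% of 13068 genes, and limma-voom, which called 0%, also called 0 of the 10. The study, which used DESeq2, reported more genes past these thresholds, and the reason for this gap was not tested. At an unadjusted p under 0.05 in edgeR, CCND3 and CDKN1B were higher (6.56% of all genes) and CCND1 and CKS1B were lower (6.58% of all genes), against 13.1% of all genes in either direction. In limma-voom the same cutoff was met by CCND3 and CDKN1B among higher genes (6.66% of all genes) and by CCND1 alone among lower ones (6.44% of all genes). The groups did not overlap for CCND3 and CDKN1B, which were higher in siRBM3 cells (9.98% of all genes), or for CCND1 and CDKN1A, which were lower (9.93% of all genes, or 19.9% in either direction). The median log2 fold change of the 10 genes was -0.02, beside -0.01 over all genes tested. The study picked out CCND1, CCND3 and CDKN1B, with CDK2 and CDK4, on these same libraries, so their directions here are not independent evidence. It also measured these genes by qRT-PCR in T24 cells. There it reported CCND3 and CDKN1B as higher and CCND1, CDK2 and CDK4 as lower after silencing. Those qRT-PCR values were not used here. An exact two-sided permutation test of 3 against 3 libraries cannot give a p below 0.1.

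**Figure D1:**
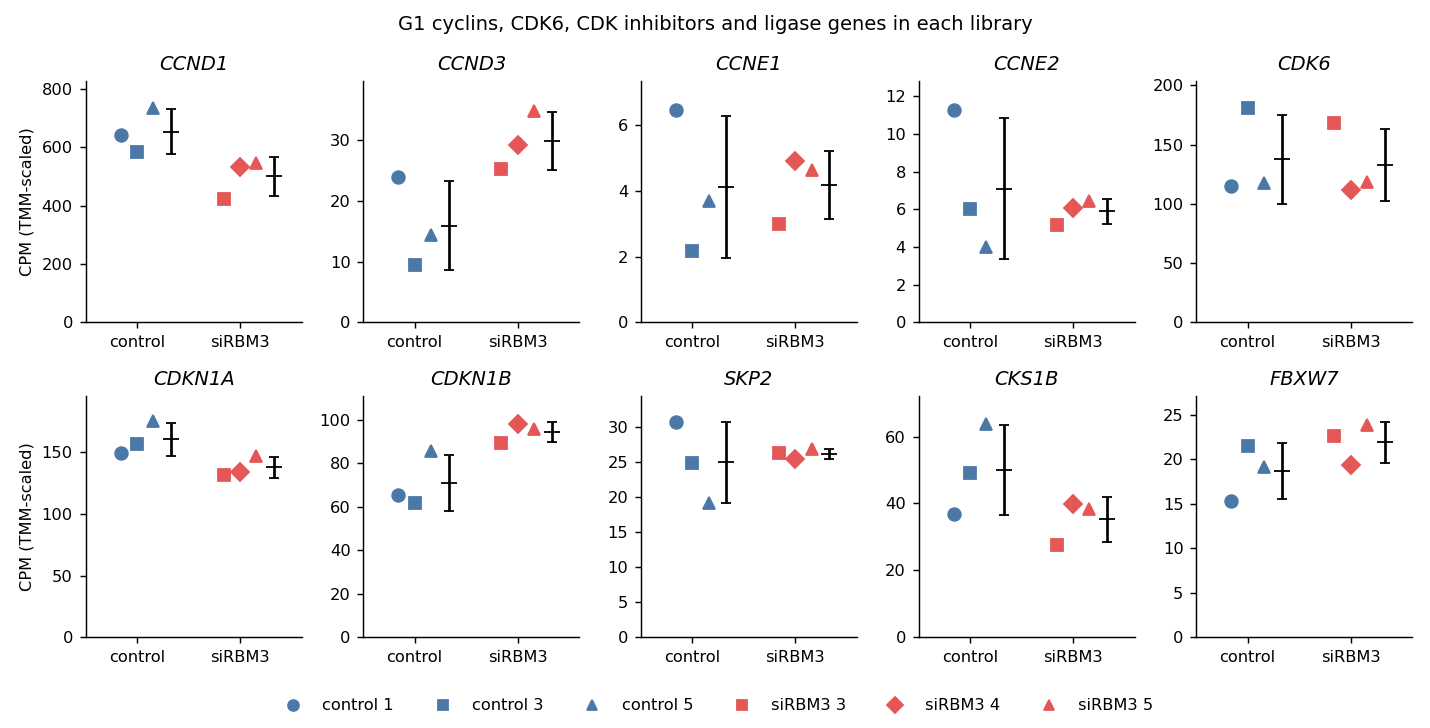
TMM-scaled CPM (y axes, each starting at 0) of the 10 genes in the 3 control and 3 siRBM3 libraries; symbols are libraries, and bars to the right give the mean ± SD. CCND3 and CDKN1B lie higher in every siRBM3 library (25.3 to 34.8 and 89.4 to 98.0 CPM), CCND1 and CDKN1A lie lower, and the siRBM3 values of SKP2 (25.4 to 26.8 CPM) lie inside the control range.

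The D-type cyclins lay on opposite sides. CCND1 (ENSG00000110092, GRCh37 chromosome 11, 69455924 to 69469242, plus strand) encodes cyclin D1, the main partner of CDK4 and CDK6 in many epithelial tumours. It had 641, 583 and 736 CPM in control and 422, 532 and 545 CPM in siRBM3 libraries. The lowest control library lay above the highest siRBM3 library by less than the spread within either group, and siRBM3 replicate 3 was the lowest of all. The fold was 0.765 (95% interval 0.620 to 0.945, edgeR FDR = 0.279). The log2 fold change was -0.28 without siRBM3 replicate 3 and -0.29 without control replicate 5, against -0.39 with all libraries, and in both fits the unadjusted p was no longer under 0.05. Exons of the antisense neighbour LTO1 cover 10.4% of the exon bases of CCND1.

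CCND3 (ENSG00000112576, chromosome 6, 41902672 to 42018095, minus strand) encodes cyclin D3, which binds the same kinases. It had 23.9, 9.49 and 14.3 CPM in control and 25.3, 29.2 and 34.8 CPM in siRBM3 libraries. Control replicate 1 was close to the lowest siRBM3 library, and the other control libraries were well below. The fold was 1.87 with a wide interval from 1.14 to 3.05 (edgeR FDR = 0.279), and DESeq2 gave an adjusted p of 0.0702. The log2 fold change was 0.64 without control replicate 3 and 1.32 without control replicate 1, and the unadjusted p was not under 0.05 without control replicate 5 or without siRBM3 replicate 5. Within each library the 2 genes can be compared without any scaling. There were 0.0373, 0.0163 and 0.0194 CCND3 counts per CCND1 count in control and 0.0599, 0.0549 and 0.0639 in siRBM3 libraries. The ratio was 2.61-fold higher in siRBM3 cells, with the siRBM3 libraries much closer to each other (SD 0.11 on the log2 scale) than the control libraries (SD 0.63). The exact permutation test gave two-sided p = 0.1, or 0.2 after Benjamini-Hochberg adjustment over 6 ratios. CCND3 was higher and CCND1 lower in every siRBM3 library, so the groups could not overlap in this ratio. Its test therefore adds no separate evidence.

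CDK6 (ENSG00000105810, chromosome 7, 92234235 to 92465887, minus strand), a kinase partner of the D-type cyclins, showed no separation. It had 115, 181 and 117 CPM in control and 168, 112 and 119 CPM in siRBM3 libraries. The high values belonged to the libraries numbered 3 in each group, and the other 4 libraries lay between 112 and 119 CPM. The fold was 0.965 (95% interval 0.683 to 1.36, edgeR FDR = 0.940). CDK4, the other kinase partner, had 127 to 132 CPM in control and 80.4 to 92.0 CPM in siRBM3 libraries, a log2 fold change of -0.61 with an adjusted p of 7.13e-05 in DESeq2 and an FDR of 0.0822 in edgeR. Exons of TSPAN31 cover 44.2% of the exon bases of CDK4.

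The E-type cyclins, partners of CDK2 at the entry into S-phase, were low and varied more among control libraries than between the groups. CCNE1 (ENSG00000105173, chromosome 19, 30302898 to 30315219, plus strand) had 6.45, 2.18 and 3.69 CPM in control and 3.00, 4.90 and 4.64 CPM in siRBM3 libraries. All siRBM3 values lay inside the control range, and the fold was 1.01 with an interval from 0.548 to 1.85 (edgeR FDR = 0.993). CCNE2 (ENSG00000175305, chromosome 8, 95891998 to 95908906, minus strand) had 11.2, 6.01 and 3.99 CPM in control and 5.17, 6.04 and 6.46 CPM in siRBM3 libraries. Its high mean in control cells came from control replicate 1, which held the highest level of both genes. The fold of CCNE2 was 0.828 (interval 0.479 to 1.43, edgeR FDR = 0.789), and without control replicate 1 the log2 fold change turned from -0.27 to 0.23. The counts behind these levels were 57 to 187 for CCNE1 and 106 to 326 for CCNE2. Antisense exons of neighbouring genes, INTS8 among them, cover 37.1% of the exon bases of CCNE2, and although the library kit was a stranded one, how strand was used in counting is not stated. CDK2 itself had 40.4 to 71.1 CPM in control and 12.9 to 33.6 CPM in siRBM3 libraries, with a log2 fold change of -1.14 (DESeq2 adjusted p = 0.0280, edgeR FDR = 0.263).

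The CDK inhibitor genes lay on opposite sides. CDKN1B (ENSG00000111276, chromosome 12, 12838432 to 12875303, plus strand) encodes p27, the inhibitor of cyclin E with CDK2. It had 65.2, 61.7 and 85.7 CPM in control and 89.4, 98.0 and 95.8 CPM in siRBM3 libraries. Control replicate 5 came close to the siRBM3 libraries, which were near each other. The fold was 1.33 (95% interval 1.08 to 1.65, edgeR FDR = 0.259). Leaving out single libraries gave log2 fold changes of 0.32 to 0.57 for CDKN1B, and it was the only one of the 10 genes with an unadjusted p under 0.05 in edgeR in all 6 of these fits. No other annotated gene overlaps its exons.

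CDKN1A (ENSG00000124762, chromosome 6, 36644237 to 36655114, plus strand) encodes p21, a related CDK inhibitor. It had 149, 156 and 175 CPM in control and 131, 134 and 147 CPM in siRBM3 libraries. The groups were apart by a narrow gap between 147 and 149 CPM. The fold was 0.859 (interval 0.734 to 1.00, edgeR FDR = 0.394). Within libraries there were 2.28, 2.54 and 2.05 CDKN1A counts per CDKN1B count in control and 1.47, 1.37 and 1.54 in siRBM3 libraries. This ratio was lower in every siRBM3 library, by -0.65 on the log2 scale (SD 0.15 in control and 0.08 in siRBM3 libraries; exact permutation test, two-sided p = 0.1, adjusted p = 0.2 over 6 ratios). Leaving out single libraries gave -0.72 to -0.57. CDKN1A was lower and CDKN1B higher in every siRBM3 library, so the groups could not overlap in this ratio. The permutation test of the ratio therefore adds no separate evidence.

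The ligase genes showed no common direction. SKP2 (ENSG00000145604, chromosome 5, 36152091 to 36196951, plus strand), the receptor that recognises p27, had 30.7, 24.9 and 19.2 CPM in control and 26.2, 25.4 and 26.8 CPM in siRBM3 libraries. The siRBM3 libraries lay close together and inside the wider control range, as the plot of CPM by library shows. The fold was 1.05 with an interval from 0.802 to 1.37 (edgeR FDR = 0.895), so changes larger than this range were not seen and smaller ones could not be resolved. CKS1B (ENSG00000173207, chromosome 1, 154947129 to 154951727, plus strand), the cofactor for p27, had 36.9, 49.2 and 63.8 CPM in control and 27.6, 39.8 and 38.3 CPM in siRBM3 libraries. The groups overlapped through control replicate 1, and siRBM3 replicate 3 was the lowest. The fold was 0.705 (interval 0.499 to 0.995, edgeR FDR = 0.375). With 1 library left out, its unadjusted p in edgeR was under 0.05 only without control replicate 1. Without control replicate 1 the log2 fold change was -0.68, against -0.50 with all libraries. It was weaker without control replicate 5 (-0.29) and without siRBM3 replicate 3 (-0.35). Without control replicate 3 or siRBM3 replicate 4 or 5 it was -0.52, -0.60 and -0.57. FBXW7 (ENSG00000109670, chromosome 4, 153241696 to 153457244, minus strand), the receptor for cyclin E, had 15.3, 21.5 and 19.1 CPM in control and 22.6, 19.3 and 23.8 CPM in siRBM3 libraries. The groups overlapped, and the fold was 1.17 (interval 0.913 to 1.51, edgeR FDR = 0.580).

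**Figure D2:**
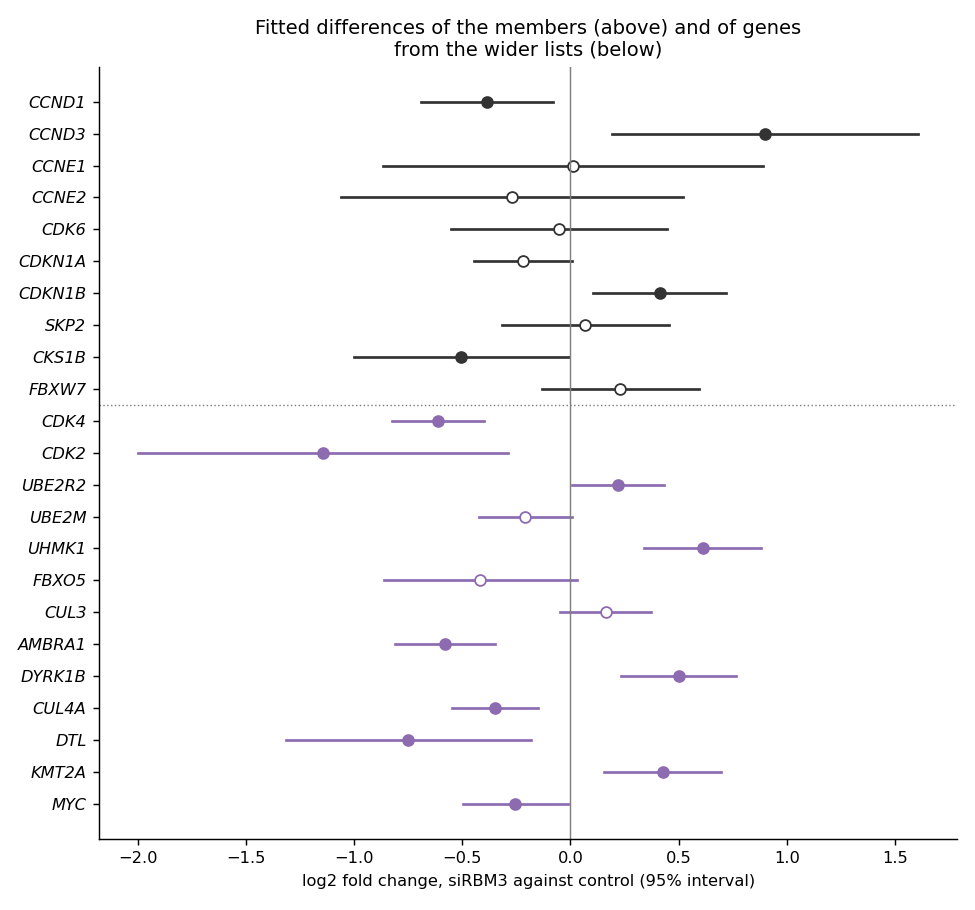
Log2 fold change of siRBM3 against control (x axis, points) with its 95% interval (lines) from the edgeR fit for the 10 genes (above the dotted line) and for 13 genes, the leading ones by p of 7 wider lists (below); filled points have an unadjusted p under 0.05. CCND3 is highest at 0.90 with a wide interval, SKP2 is at 0.07, and UHMK1 and AMBRA1 have narrow intervals at 0.61 and -0.58.

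The inhibitor and its ligase were then read side by side in each library. There were 2.13, 2.48 and 4.47 CDKN1B counts per SKP2 count in control and 3.40, 3.86 and 3.58 in siRBM3 libraries. The groups overlapped, and control replicate 5 had the highest ratio of all (difference 0.33 on the log2 scale, exact permutation test, two-sided p = 0.4, adjusted p = 0.6). The difference was 0.12 without control replicate 1 and 0.65 without control replicate 5. Against the cofactor CKS1B the ratio was 1.77, 1.26 and 1.34 in control and 3.24, 2.46 and 2.5 in siRBM3 libraries. This ratio was 1.88-fold higher in siRBM3 cells and did not overlap between the groups (SD 0.26 in control and 0.22 in siRBM3 libraries on the log2 scale; exact permutation test, two-sided p = 0.1, adjusted p = 0.2). Leaving out single libraries gave log2 differences of 0.79 to 1.06. CDKN1B was higher in every siRBM3 library and CKS1B lower on average, so this ratio repeats those differences and is not separate evidence. For cyclin E against its ligase, CCNE1 counts per FBXW7 count were 0.420, 0.101 and 0.193 in control and 0.133, 0.254 and 0.195 in siRBM3 libraries. CCNE2 counts per FBXW7 count were 0.733, 0.279 and 0.209 in control and 0.229, 0.313 and 0.271 in siRBM3 libraries. Both cyclin E ratios overlapped between the groups, with control replicate 1 the highest library in each (exact permutation tests, two-sided p = 1 and p = 0.8, adjusted p = 1 and p = 0.96).

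**Figure D3:**
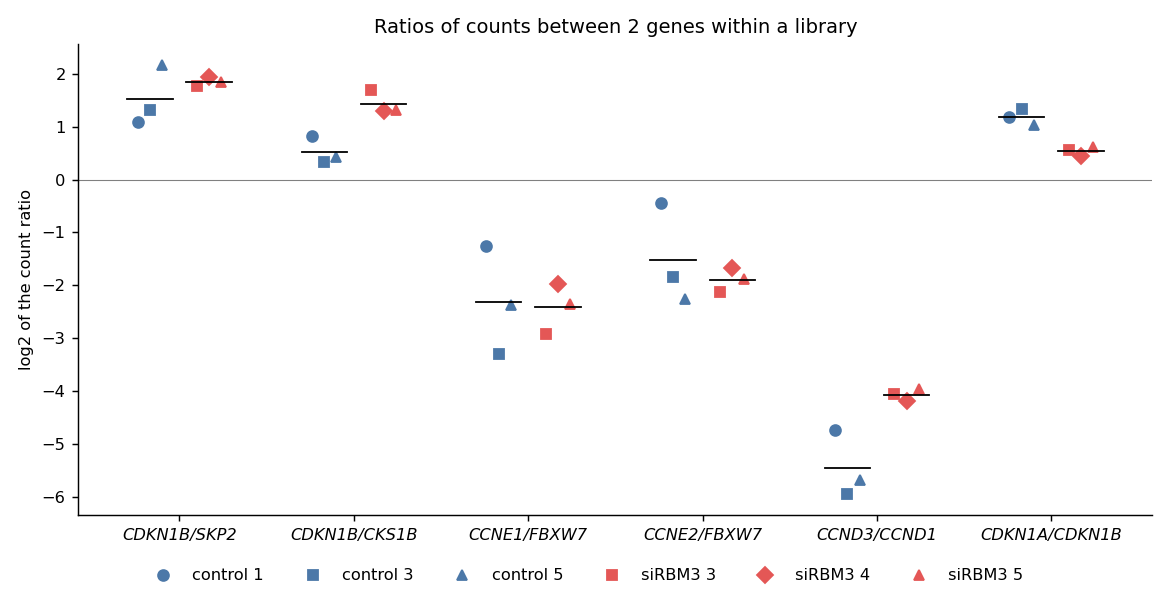
Log2 of the ratio of counts between 2 genes (y axis) in each library for 6 gene pairs (x axis); symbols are libraries and lines the group means. CDKN1B/CKS1B and CCND3/CCND1 lie higher and CDKN1A/CDKN1B lies lower in every siRBM3 library, while the ratios with SKP2 and FBXW7 overlap.

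Several members follow the phase of the cell cycle, so lists of phase genes were set beside them. The mean log2 deviation of 40 S-phase genes from their mean over the 6 libraries was 0.45, 0.01 and 0.13 in control and -0.50, -0.08 and -0.02 in siRBM3 libraries. For 53 G2/M genes it was -0.06, -0.11 and 0.48 in control and -0.78, 0.09 and 0.38 in siRBM3 libraries. CCNE2 was left out of the first list and CKS1B out of the second. Control replicate 1, the highest in S-phase genes, was also the highest in CCNE1, CCNE2 and SKP2. Control replicate 5, the highest in G2/M genes, was the highest in CKS1B, CCND1 and CDKN1A, and siRBM3 replicate 3, the lowest in G2/M genes, was the lowest in all 3. The same siRBM3 replicate 3 was also the lowest in S-phase genes. Other libraries did not follow this order. At 0.38 in G2/M genes, siRBM3 replicate 5 had -0.10 in CKS1B, -0.06 in CCND1 and -0.01 in CDKN1A. At 0.13 in S-phase genes, control replicate 5 was the lowest in CCNE2 and SKP2. The groups did not overlap in S-phase genes but overlapped in G2/M genes. The part of phase in the differences between the groups was not tested. For CDKN1B and CCND3, siRBM3 replicate 3 was the lowest of the siRBM3 libraries and lay above every control library.

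**Figure D4:**
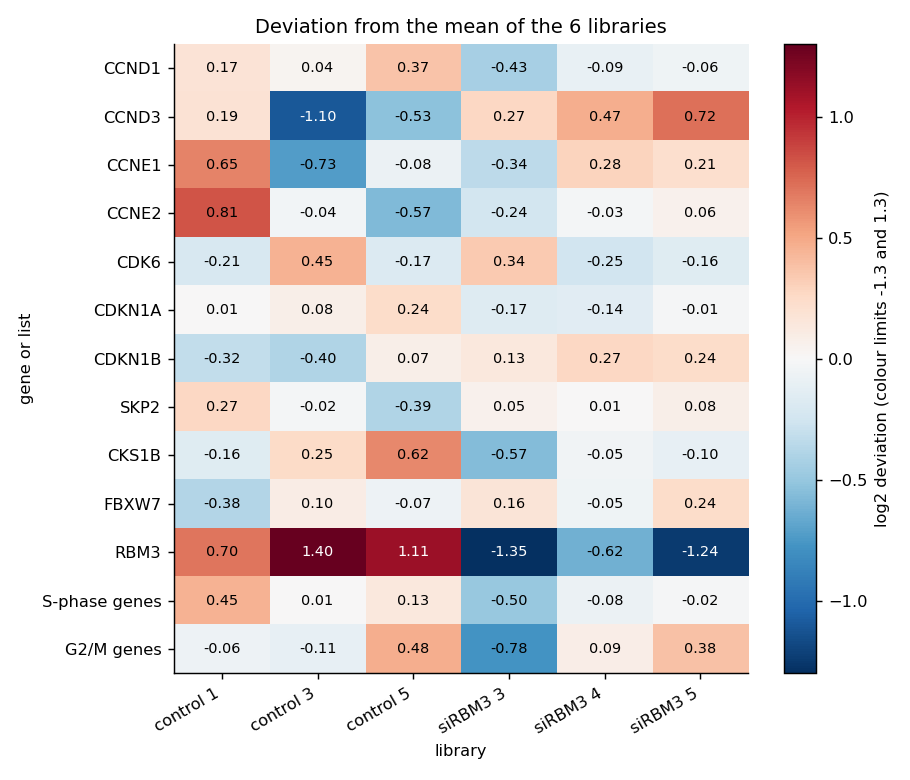
Log2 deviation of each gene from its mean over the 6 libraries, and the mean of the same deviation over S-phase and G2/M genes (rows), in each library (columns); numbers are the values and colours follow the bar. CCNE1 (0.65) and CCNE2 (0.81) are highest in control replicate 1, where S-phase genes are at 0.45. CKS1B (-0.57) is lowest in siRBM3 replicate 3, where G2/M genes are at -0.78 and S-phase genes at -0.50.

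The wider machinery was read from 7 lists with 55 genes, of which 51 were tested. At an unadjusted p under 0.05 in edgeR, 4 were higher and 6 lower in siRBM3 cells, beside 6.56% and 6.58% of all genes. The groups did not overlap for 7 higher and 11 lower genes, beside 9.98% and 9.93% of all genes. The median log2 fold change of the 51 genes was -0.07, with 19 higher and 32 lower, beside 7325 and 7774 of all 15099 genes. The lists were chosen with results of these libraries known, and no test of them as a set was made. None passed the FDR of 0.01 in edgeR or limma-voom, and DESeq2 called 2, CDK4 and UHMK1, beside 1.22% of all genes. Of 11 genes of the SCF core, its E2 enzymes and the neddylation that activates cullins, 10 were tested. Among them 5 were higher and 5 lower, with a median log2 fold change of 0.02. Only UBE2R2, an E2 enzyme of SCF ligases, had an unadjusted p under 0.05, with 152 to 170 CPM in control and 178 to 197 CPM in siRBM3 libraries (log2 fold change 0.22, edgeR FDR = 0.359). UBE2M, the E2 enzyme for NEDD8, had a log2 fold change of -0.21 (edgeR FDR = 0.393). CUL1, the scaffold of the ligase, had 93.7 to 103 CPM in control and 90.8 to 96.9 CPM in siRBM3 libraries. NEDD8 had 0 to 4 counts in each library although cells in general use this gene. Its exons overlap those of the readthrough gene NEDD8-MDP1, and the part of this overlap in the low counts was not tested.

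Among 8 other genes of p27 and SKP2 turnover, 1 was higher and 7 were lower, with a median log2 fold change of -0.17. Of all 15099 genes tested, 7774 were lower. None of the 7 had an unadjusted p under 0.05 in edgeR, and CKS2 (-0.0064) and RCHY1 (-0.033) hardly differed. The higher gene was UHMK1, which encodes the kinase KIS that phosphorylates p27 and directs its export from the nucleus. UHMK1 had 170, 190 and 158 CPM in control and 299, 237 and 254 CPM in siRBM3 libraries. The groups did not overlap, and siRBM3 replicate 3 was the highest. The fold was 1.53 (95% interval 1.27 to 1.84), with an FDR of 0.110 in edgeR and an adjusted p of 0.00328 in DESeq2. Leaving out single libraries gave log2 fold changes of 0.51 to 0.69. FBXO5, an inhibitor of the APC/C ligase that degrades SKP2, had 25.1 to 32.8 CPM in control and 15.4 to 24.4 CPM in siRBM3 libraries (log2 fold change -0.42, edgeR FDR = 0.412). Of 5 genes of cyclin E turnover and FBXW7 regulation, 2 were higher, 3 were lower, and none had an unadjusted p under 0.05 in edgeR or limma-voom. CUL3, the scaffold of another cyclin E ligase, had a log2 fold change of 0.16 (edgeR FDR = 0.502).

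Of 7 genes of cyclin D turnover, 5 were tested. AMBRA1 and DYRK1B had an unadjusted p under 0.05 in edgeR, beside 13.1% of all genes in either direction. AMBRA1 (chromosome 11, 46417964 to 46615675), a receptor of the CUL4 ligase for D-type cyclins, had 52.6, 55.8 and 51.1 CPM in control and 33.2, 38.0 and 35.5 CPM in siRBM3 libraries. The groups were far apart relative to an SD of 2.39 CPM in each. The fold was 0.668 (95% interval 0.569 to 0.785), just short of a fold change of 1.5, with an FDR of 0.0928 in edgeR and an adjusted p of 0.000675 in DESeq2. DYRK1B, a kinase that phosphorylates cyclin D1 and p27, had 37.9, 31.2 and 37.2 CPM in control and 54.1, 47.6 and 48.6 CPM in siRBM3 libraries (log2 fold change 0.50, edgeR FDR = 0.157, DESeq2 adjusted p = 0.0194). FBXO4, FBXO31 and FBXW8, F-box genes proposed for cyclin D1, had log2 fold changes of -0.18, -0.04 and 0.17. For p21 turnover, 2 of 7 genes were lower at an unadjusted p under 0.05 in edgeR, beside 6.58% of all genes. CUL4A had 132 to 141 CPM in control and 102 to 113 CPM in siRBM3 libraries (log2 fold change -0.35, edgeR FDR = 0.170, DESeq2 adjusted p = 0.0524). DTL, the receptor that brings p21 to the CUL4 ligase in S-phase, had 21.5 to 33.5 CPM in control and 11.6 to 21 CPM in siRBM3 libraries (log2 fold change -0.75, edgeR FDR = 0.264), and it is also one of the S-phase genes. CUL4A and AMBRA1 encode parts of CUL4 ligases. The closely related scaffold CUL4B had a log2 fold change of 0.10 (edgeR FDR = 0.734) with overlapping groups. The adaptor DDB1 had a log2 fold change of -0.24 (edgeR FDR = 0.464). DDB1 was lower in every siRBM3 library, as were 9.93% of all genes.

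Of 9 transcription regulators of these genes, 5 were higher and 4 lower. KMT2A, a histone methyltransferase that with menin maintains CDKN1B transcription, had 105, 120 and 108 CPM in control and 169, 129 and 150 CPM in siRBM3 libraries (log2 fold change 0.43, edgeR FDR = 0.209). MYC, which represses CDKN1A and CDKN1B, had 200 to 241 CPM in control and 172 to 191 CPM in siRBM3 libraries (log2 fold change -0.26, edgeR FDR = 0.356). FOXO1, FOXO3 and FOXO4, activators of CDKN1B, had log2 fold changes of 0.16, -0.06 and 0.23, and the groups overlapped for each. FOXM1, an activator of SKP2 and CKS1B, had 142 to 179 CPM in control and 79.8 to 154 CPM in siRBM3 libraries (log2 fold change -0.42, edgeR FDR = 0.471). Among the other G1 cyclins, CDKs and inhibitors, CCND2 had too few counts to be tested, and CDKN1C, CDKN2A, CDKN2B, CDKN2C and CDKN2D had log2 fold changes between -0.27 and 0.32 with overlapping groups.

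Levels were compared between genes per kilobase of exon (RPKM, from the TMM-scaled library sizes and all annotated exon bases of a gene). In control cells CCND1 was the highest with 137 ± 16.2 RPKM (SD, n = 3), followed by CDKN1A with 53.5 ± 4.57 and CDK4 with 41.8 ± 0.874, and the ranges of these neighbours did not overlap. CKS1B had 21.4 ± 5.75 RPKM (SD, n = 3), CDK2 14.7 ± 4.0 and CDK6 11.2 ± 3.06, and each overlapped the next. CDKN1B had 7.66 ± 1.40 RPKM (SD, n = 3), below CDK6 in every control library. CCND3 (2.76 ± 1.28), CCNE1 (1.67 ± 0.879), FBXW7 (1.65 ± 0.277), CCNE2 (1.61 ± 0.850) and SKP2 (1.43 ± 0.331 RPKM, SD, n = 3) formed a low group in which neighbours overlapped. The long annotated exons of SKP2, 17377 bases in all, lower its value if most transcripts are shorter. The same holds for other genes, such as CDKN1B with 9255 bases, so the order of genes depends on these lengths. In control cells the CDKN1B range ended at 9.26 RPKM and the CDK6 range began at 9.38 RPKM. In siRBM3 cells CDKN1B had 10.2 ± 0.486 RPKM (SD, n = 3) and CCND3 5.17 ± 0.828, while CCND1 with 105 ± 14.1 RPKM remained far above CCND3.

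**Figure D5:**
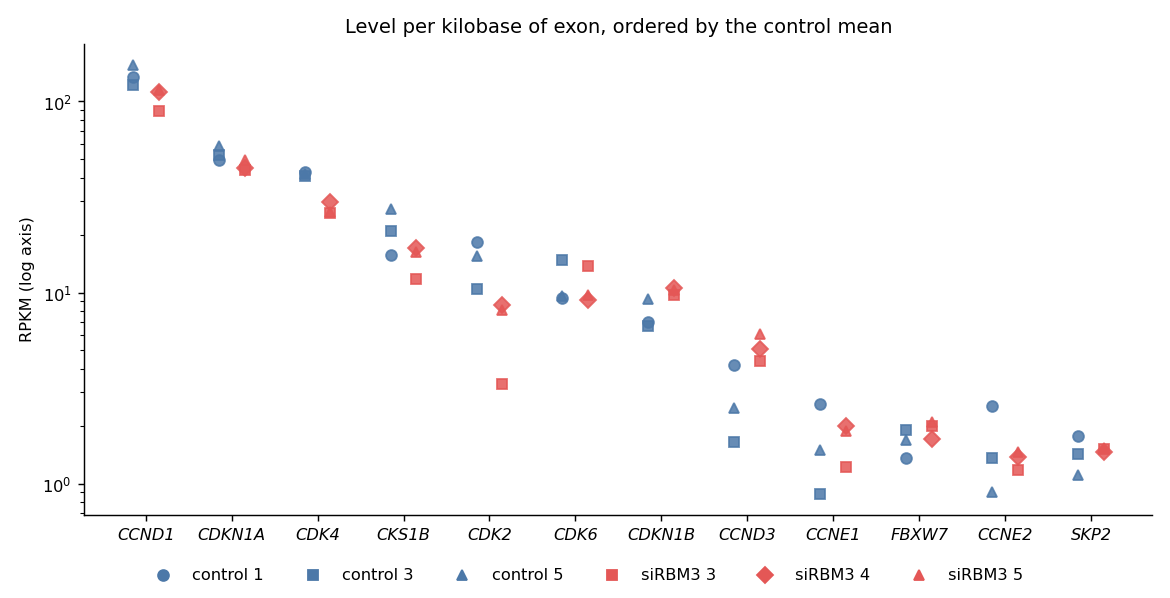
RPKM (y axis, logarithmic) of the 10 genes with CDK4 and CDK2 (x axis, in the order of the control means); symbols are libraries, control on the left and siRBM3 on the right of each gene. CCND1 (88.7 to 155 RPKM) is above all other genes in every library, and CCNE1, FBXW7, CCNE2 and SKP2 lie close together between 0.886 and 2.62 RPKM.

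The genes whose log2 CPM over the 6 libraries was most like that of a member were ranked by Pearson's r among 14746 tested genes matched to the annotation. For CDKN1B these were IGF2 (r = 0.996) and LRRC23 (r = 0.991), with a gene listed by its identifier alone (ENSG00000255182, r = 0.991), and 167 genes had r above 0.9. For CCND3 they were PPP2R3A (r = 0.996), HERC3 (r = 0.995) and NSMF (r = 0.994), among 354 genes above 0.9. MAP3K14 (r = 0.992), GIGYF2 (r = 0.988) and NUP210 (r = 0.982) were the most like SKP2, and ATP6AP1L (r = 0.996), C5orf63 (r = 0.989) and USP40 (r = 0.986) the most like FBXW7. These values describe 6 libraries that share the contrast between the groups, and they are given without a test.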

How the data were processed

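Polyadenylated RNA of 3 control and 3 siRBM3 T24 samples was sequenced as single 75-base reads, which the authors trimmed with BBDuk, aligned to hg19/GRCh37 with STAR, marked for duplicates with Picard and counted with featureCounts. The deposited values are raw counts per Ensembl identifier. The library kit was stranded (TruSeq). For the annotation release, the strand setting and the use of marked duplicates, the sources used here give nothing. Promoters on chromosome 8 were not searched.

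Of 63677 identifiers, 55665 were matched to a symbol and GRCh37 position in GENCODE 44, lifted to GRCh37. Genes kept by filterByExpr (minimum count 10, minimum total 15) were scaled by TMM and fitted by the quasi-likelihood method of edgeR 4.0.16, with Benjamini-Hochberg FDR and the study's thresholds (fold change 1.5, FDR 0.01). The standard error was the log2 fold change over the root of F. DESeq2 1.42.0, the study's tool, and limma-voom 3.58.1 were alternatives in R 4.3.3. Log2 values used a pseudocount of 0.5 CPM. Phase genes came from Seurat 5.3.0. Count ratios of 6 gene pairs were compared by exact permutation tests. The named genes are the members, RBM3, CDK4, CDK2, the 2 genes with the smallest p of each list and 3 alike genes for each of 4 members. Other genes were named after their values were seen. Results that need items withheld from the text are not reported here. The members and lists were chosen with earlier results of these data known. The steps were tested on simulated data. Library pairs within a group differed by a chi-square per degree of freedom of 27.7 to 141, so none was counted as a repeat. PECAM1, a listed endothelial marker, was not matched.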

Additional observations from a re-analysis of the deposited data

How the results depend on the processing

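The alternatives changed few directions and no direction of CCND1, CCND3, CDKN1A, CDKN1B, CKS1B or FBXW7. CCNE1, at 0.01, had a log2 fold change of -0.04 with library size only. Left-out libraries gave log2 fold changes from -0.29 to 0.50 for CCNE1, -0.56 to 0.23 for CCNE2, -0.26 to 0.19 for CDK6 and -0.0891 to 0.25 for SKP2. The counts of members at an unadjusted p under 0.05 ranged from 1 to 2 higher and 0 to 3 lower with a library left out (1 lower with limma-voom), and those of wider list genes from 3 to 5 higher and 5 to 8 lower. Members past both thresholds numbered 0 in each of these fits and at an FDR of 0.05 or 0.1 without a fold threshold, but 1 with no filter on low counts (CCND3). Wider list genes past both numbered 2 in DESeq2 and 3 with no filter (CDK4, UHMK1 and DTL). The cause was not tested.

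Numbers 3 and 5 occur in both groups, and the deviations of same-numbered libraries had correlations of 0.528 and 0.0884. Control replicate 3 had -0.275 and -0.304 with siRBM3 replicates 4 and 5. Control replicate 5 had -0.134 and 0.0555 with siRBM3 replicates 3 and 4. The same-numbered library was thus the most alike for both, clearly so for number 3. The labels do not say what the number stands for, and it was not taken as pairing in the main fit. With the replicate number as a block, the difference between the groups rests on numbers 3 and 5 only. Control replicate 1 and siRBM3 replicate 4 have no library of the same number, so very little is left to estimate spread. In that fit 2 members (CCND3, log2 fold change 1.35, edgeR FDR = 0.000416, and CKS1B, -0.78, edgeR FDR = 0.00253) and 4 wider list genes passed both thresholds. There 16 wider list genes were lower at an unadjusted p under 0.05, and CCNE2 had a log2 fold change of 0.22. Over these 2 numbers alone, as a replicate block, the log2 ratio of CCNE1 to FBXW7 differed by 0.20 and that of CCNE2 to FBXW7 by 0.0468, against -0.11 and -0.38. With a library left out these ratios ranged from -0.60 to 0.42 and from -0.75 to 0.16. The other ratios kept their direction. For CDKN1B to SKP2 the range was 0.12 to 0.65, and 0.07 over the shared numbers. The part of depth in the width of the intervals was not tested.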
